A study of Homo sapiens with 2 samples.

Results

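Antisense RNA genes named with the suffix -AS1 were described in SUM-159, an established human line of triple-negative breast cancer, together with the protein-coding genes whose names they carry. RNA sequencing had been carried out on 2 samples of this line, 1 library from PD-L1L2-SE deficient cells and 1 library from sgVector control cells. PD-L1L2-SE is the super-enhancer (a dense cluster of enhancers) that the title of the series connects with the ligands PD-L1 and PD-L2. The labels do not say whether either sample was a single clone or a mixed population. With 1 library per genotype, no difference below has a replicate check, and a difference between the libraries cannot be told apart from a difference between the cultures they came from.

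The table held 60880 gene rows, of which 1639 had a symbol ending in -AS1. Members were selected on their measured level, a mean of at least 1 RPKM over both libraries, where RPKM scales the reads of a gene to its length in kilobases and to 1000000 reads on genes. This floor kept 207 of the 1639 rows (12.6%). The other 1432 lay below it, 575 of them without a read in either library. Next above the floor stood NUTM2A-AS1, at 0.980 RPKM in the deficient and 1.06 RPKM in the sgVector library. Next below it stood ZFHX3-AS1, at 0.681 and 1.31 RPKM. Because the floor is set on the mean, 28 members were under 1 RPKM in the deficient library and 10 under it in the sgVector library.

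An antisense RNA is transcribed from the strand opposite to a gene, often from within it or from a start site close to its promoter. Such RNAs are usually long, spliced and non-coding, and many are kept at low levels by nuclear RNA decay. Some are known to act on the gene they overlap, by changing its transcription, splicing or RNA stability, while others act elsewhere or have no known role. In the annotation, 171 of the 207 members were typed as antisense, 16 as lincRNA, 14 as processed transcript and 2 (KRT10-AS1 and KCNJ5-AS1) as protein-coding.

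The libraries held 16381546 reads on genes in the deficient and 16206675 in the sgVector sample. CD274, which encodes PD-L1, stood at 0.698 RPKM in the deficient against 7.16 RPKM in the sgVector library, and PDCD1LG2, which encodes PD-L2, at 1.19 against 5.32 RPKM. The markers fixed for a mesenchymal breast line were present, with VIM at 390 and 746 RPKM and CD44 at 68.8 and 82.8 RPKM. PGR and CD3E had 0 reads in both libraries, and ESR1, EPCAM, CDH1, PTPRC and CDH5 had at most 6 reads in either. The endothelial marker PECAM1 was not matched to a row. KRT18, an epithelial keratin, was nonetheless present at 21.1 and 28.9 RPKM, ERBB2 at 9.996 and 7.02 RPKM, and the fibroblast genes COL1A1 and PDGFRA at 7.32 and 18.6 and at 22.1 and 10.5 RPKM.

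The sources used here do not give the strand setting of the counting, so it was read from the table. Of 662 rows whose exons lay wholly inside exons of an opposite-strand gene, 661 had 0 reads and 1 had 1 read, and the 26 of these that were -AS1 rows all had 0. Of 43450 rows that shared no exon base with another row, 19312 (44.4%) had reads. The table therefore reads as one counted without strand, in which reads touching exons of more than 1 gene were left uncounted. A member's value comes only from exon bases that no other row covers, but it was divided by the full length, so that overlapping members are understated. These free bases made up a median of 91.6% of a member's exon length, with a lowest value of 17.7% and 12 members under 50%. For 187 members some exon bases lay inside the span of the partner, where reads from unspliced partner RNA cannot be told apart from reads of the antisense RNA.

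Together the 207 members took 30167 reads in the deficient library, 0.184% of its total, and 34067 in the sgVector library, 0.210%. Their summed share was thus 1.14-fold lower in the deficient sample (95% interval 1.12 to 1.16). This sum leans on the members with many reads. Among them were OIP5-AS1, with 4493 reads over both libraries and higher in the deficient sample, and ADIRF-AS1, with 3937 and lower. The interval of the sum does not cover how the members differ from each other. Intervals here are Clopper-Pearson intervals of a ratio of read shares and cover counting error only, since reads copied by PCR are not independent molecules. Most members were low: mean levels ran from 1.02 to 55.1 RPKM with a median of 2.01, 13 members were above 10 RPKM, and 51 had fewer than 50 reads over both libraries. At that depth a change of a few reads moves the ratio of a member, and 123 of the 207 intervals included no change.

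Ratios were taken on a log2 scale after adding 0.1 RPKM to each value, deficient over sgVector, and a member was called where the ratio reached 1 or -1, a 2-fold change either way. On this scale 139 members were below 0 and 68 above, with a median of -0.21. The median was -0.05 over all 13552 genes past the floor, -0.03 over 10576 protein-coding genes and -0.27 over 909 other long non-coding genes. Called higher were 7 members (3.38%), beside 3.03% of all genes past the floor, and called lower were 22 (10.6%), beside 4.69%. The share called higher was near the background, and the share called lower was above it and below the 15.4% of the other long non-coding genes. By the stricter rule that the whole interval lies past 2-fold, 0 members were higher, beside 1.22% of all genes, and 7 (3.38%) were lower, beside 1.18%. Of the 909 other long non-coding genes, 11 were higher and 21 lower by this rule. By interval the share of members called lower was thus not below that of these genes, unlike by the ratio alone. The interval rule depends on depth, and the members had a median of 109 reads against 73 for these genes. The part of depth in this contrast was not tested.

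These shares were set beside the depth and base composition of the genes. Among the 156 members with at least 50 reads, 3 (1.92%) were called higher and 15 (9.62%) lower, against 2.26% and 2.81% of all genes with that many reads. Of 558 other long non-coding genes with that many reads, 3.58% were called higher and 11.8% lower. The share of members called lower was thus above that of all genes and below that of the other long non-coding genes. Median GC content was 50% in the members and 48.0% in protein-coding genes, and the highest GC range of members, from 53.3% to 69.6%, had 55 of 69 below 0 and a median of -0.31. The middle range had a median of -0.08 with 40 of 69 below 0. The lowest range, from 34.1% to 45.9%, had a median of -0.16 with 44 of 69 below 0, so that the medians did not fall steadily with GC content. After a correction of the ratios for GC content and length the members' median was -0.11, against -0.01 over all genes, and 18 members (8.70%) were lower, against 3.56%. The part of GC content in the members' ratios was not tested. With a pseudocount of 1 RPKM in place of 0.1, which pulls low genes towards no change, 0 members were called higher, beside 1.59% of all genes, and 7 (3.38%) lower, beside 2.54%. At that setting the share called lower was near the background.

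**Figure D1:**
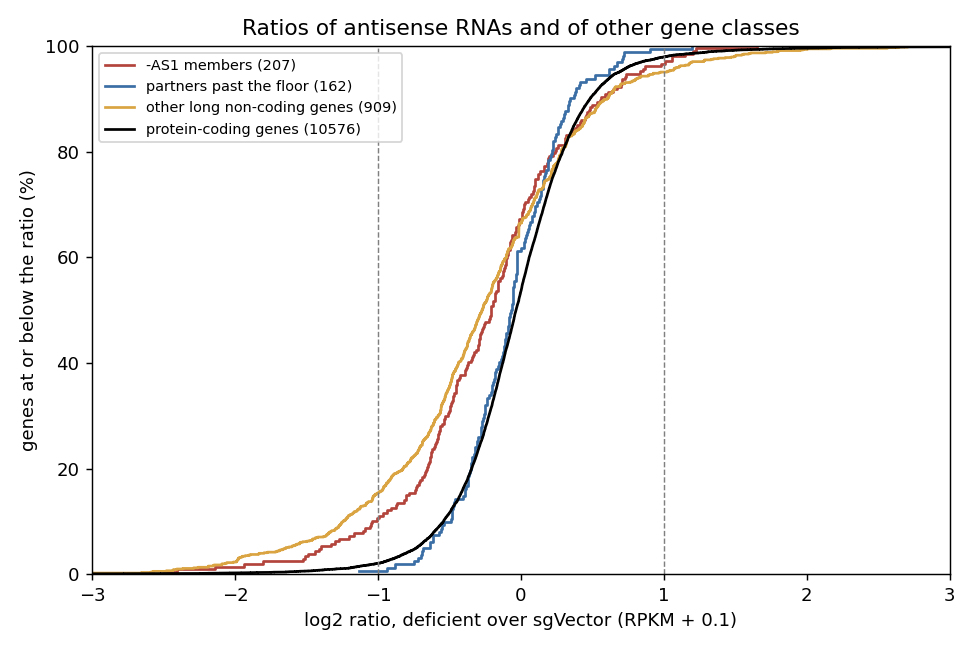
Cumulative share of genes (%, vertical axis) at or below each log2 ratio of deficient over sgVector (RPKM + 0.1, horizontal axis) for the 207 antisense RNAs, their 162 partners past the floor, 909 other long non-coding genes and 10576 protein-coding genes, with dashed lines at 2-fold. Left of the lower dashed line lie 10.6% of the antisense RNAs and 0.617% of the partners, and there the antisense curve runs between those of the other long non-coding (15.4%) and the protein-coding genes (2.07%).

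Antisense RNAs that start back to back with their partner share a promoter region with it, and these pairs carry the regulatory sequence most directly tied to both genes. RefSeq promoter windows (GRCh38.p14, 250 bases before to 50 after a gene's start) were found for 151 of the 207 members, and for 136 of these with a window of the partner. In 26 pairs the windows overlapped. This is the layout in RefSeq, and in the coordinates used for counting many of these pairs overlap in their exons or spans. HERPUD2-AS1 is one of them, with 152 exon bases shared with HERPUD2, where reads were left uncounted. For 3 of the 26 pairs the window is printed from 5' to 3' on the strand of the antisense RNA. Capitals mark matches to GGGCGG, the GC box bound by SP-family factors, or to CCGGAA, the core of ETS sites, on either strand.

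TRIM52-AS1, chr5:181260962-181261261, plus strand, TRIM52 starting 69 bases upstream on the other strand: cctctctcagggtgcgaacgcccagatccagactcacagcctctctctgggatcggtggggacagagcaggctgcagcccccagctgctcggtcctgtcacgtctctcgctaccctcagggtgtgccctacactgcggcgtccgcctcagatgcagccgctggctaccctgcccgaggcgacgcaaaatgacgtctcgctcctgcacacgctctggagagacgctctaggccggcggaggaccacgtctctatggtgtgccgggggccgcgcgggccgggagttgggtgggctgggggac

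HERPUD2-AS1, chr7:35694956-35695255, plus strand, HERPUD2 starting 71 bases upstream on the other strand: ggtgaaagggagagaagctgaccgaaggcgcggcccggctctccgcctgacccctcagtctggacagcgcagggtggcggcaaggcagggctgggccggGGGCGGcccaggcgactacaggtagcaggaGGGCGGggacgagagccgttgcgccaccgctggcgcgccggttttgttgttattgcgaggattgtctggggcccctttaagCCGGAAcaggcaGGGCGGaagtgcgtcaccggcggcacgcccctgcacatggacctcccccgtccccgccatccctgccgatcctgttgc

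TRAM2-AS1, chr6:52576952-52577251, plus strand, TRAM2 starting 142 bases upstream on the other strand: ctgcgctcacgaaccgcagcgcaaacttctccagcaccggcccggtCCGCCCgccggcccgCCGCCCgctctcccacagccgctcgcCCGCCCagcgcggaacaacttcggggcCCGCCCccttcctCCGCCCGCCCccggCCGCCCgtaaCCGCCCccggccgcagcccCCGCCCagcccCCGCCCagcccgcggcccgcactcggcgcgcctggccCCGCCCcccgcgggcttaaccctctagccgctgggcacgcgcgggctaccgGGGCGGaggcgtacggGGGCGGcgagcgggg

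The TRIM52-AS1 window is GC-rich (68.0%) yet holds no match to either motif, the HERPUD2-AS1 window has 3 GC boxes and 1 ETS match, and the TRAM2-AS1 window has 13 GC boxes at a GC content of 82.0%. These 3 windows were chosen after their values were seen, to show none, few and many matches. Over the 151 member windows the GC box was found in 90 (59.6%), against 44.6% of all 27305 windows, and the ETS core in 23.8% against 17.6%. The TATA box (TATAAA) was found in 5 (3.31%) against 11.95%, and CCAAT in 30.5% against 35.7%. Member windows had a median GC content of 65.3%, against 58.3% of all windows. A match describes letters in a window and no binding was measured.

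TRIM52-AS1 stood at 20.8 RPKM in the deficient and 20.4 RPKM in the sgVector library, with a ratio of 1.02-fold (0.893 to 1.17). The levels of the RNA were near equal in both samples. With the correction for GC content and length its log2 ratio was 0.23 in place of 0.03. TRIM52, a ubiquitin ligase of the tripartite-motif family, was less abundant than the RNA and differed between the libraries, at 2.94 against 1.83 RPKM, 1.603-fold higher in the deficient library (1.34 to 1.93). HERPUD2-AS1 stood at 2.31 against 1.35 RPKM, 1.71-fold higher in the deficient library (1.31 to 2.24), and HERPUD2, which encodes a membrane protein with a ubiquitin-like domain, at 10.2 against 8.52 RPKM, 1.199-fold higher (1.06 to 1.36). TRAM2-AS1 stood at 3.38 against 2.42 RPKM, 1.39-fold higher (1.07 to 1.82), and TRAM2, which acts with the translocon of the endoplasmic reticulum, at 9.32 against 8.16 RPKM, 1.14-fold higher (1.04 to 1.25). In both of these pairs RNA and gene were higher in the same library.

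In the coordinates of the table, 11 members were divergent, starting within 5000 bases of the partner and leading away from it without overlap. No divergent member was called, beside 3.03% of all genes past the floor called higher and 4.69% called lower. Among 11 members a count of 0 is near that background. Their median log2 ratio was 0.03, beside -0.21 for members that overlap partner exons, and 7 of the 8 pairs with an expressed partner had ratios of the same sign. OTUD6B-AS1, whose start lies 7 bases from that of OTUD6B in the table, had 404 and 241 reads, at 4.10 against 2.47 RPKM and 1.66-fold higher in the deficient library (1.41 to 1.95). OTUD6B, a deubiquitinating enzyme, stood at 5.34 against 3.20 RPKM and was 1.67-fold higher (1.40 to 1.995). The log2 ratios of the pair were 0.71 and 0.72, and the median over the 4 expressed protein-coding genes within 1 Mb was 0.41, so that neighbouring genes were higher as well.

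TGFB2-AS1 and TGFB2, the gene of the growth factor TGF-beta 2, were also both higher. The RNA stood at 2.96 against 1.77 RPKM from 27 and 16 reads, and its interval of 0.868- to 3.32-fold included no change. TGFB2 stood at 10.65 against 5.65 RPKM, 1.88-fold higher (1.68 to 2.11). URB1-AS1 (5.58 against 7.13 RPKM) and URB1, a ribosome biogenesis factor (3.76 against 4.10 RPKM), were both lower in level in the deficient library, and both intervals included no change. SCAMP1-AS1, at 2.93 against 3.06 RPKM, was the member of these 8 pairs whose sign differed from that of its partner. SCAMP1, a membrane protein of secretory vesicles, stood at 21.6 against 18.2 RPKM, 1.18-fold higher (1.11 to 1.27), while the interval of the RNA (0.702- to 1.30-fold) included no change. Among the 23 pairs with overlapping RefSeq windows and an expressed partner, 17 (73.9%) had the same sign, against 54 of 91 (59.3%) without overlap. The correlation of member and partner ratios (Pearson's r) was near equal, 0.28 with and 0.25 without overlap. For members with at least 50 reads it was 0.40 and 0.27. The differences between these groups were not tested. Of the 23 members 0 were called, beside 3.03% of all genes past the floor called higher and 4.69% called lower. In so few members a count of 0 is near that background.

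Among the 10 most abundant members, IGFL2-AS1, on chromosome 19 from 46692423 to 46706340 (hg19, minus strand, 7 exons), led at 45.8 RPKM in the deficient and 64.3 RPKM in the sgVector library from 1314 and 1825 reads. It was 1.40-fold lower in the deficient sample (1.31 to 1.51). IGFL2, an insulin growth factor-like gene, had 3 and 2 reads, and its start lies 59977 bases away with no overlap between the 2 genes. SLC9A3-AS1 followed at 29.5 against 33.4 RPKM, 1.13-fold lower (1.06 to 1.1998), with the sodium-proton exchanger gene SLC9A3 at 2.97 against 2.77 RPKM. PRR11-AS1 stood at 27.95 against 34.4 RPKM and PRR11 at 14.8 against 14.5 RPKM. The intervals of both included no change.

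ADIRF-AS1 was the abundant member with the most reads behind a called difference. It stood at 12.9 RPKM in the deficient and 29.2 RPKM in the sgVector library, from 1216 and 2721 reads, and was 2.26-fold lower (2.11 to 2.42). With the correction for GC content and length its log2 ratio was -0.99 in place of -1.17, just short of the 2-fold threshold. ADIRF, which promotes adipocyte differentiation, had 0 reads in both libraries, and 91.9% of its exon bases lie inside exons of ADIRF-AS1. Since reads touching both genes were left uncounted, the level of ADIRF was not measurable here and no pair could be formed.

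NHSL1-AS1, a 3-exon RNA on chromosome 6 from 139013685 to 139018425 (hg19, plus strand), stood at 7.66 RPKM in the deficient and 20.5 RPKM in the sgVector library. With 153 and 406 reads it was 2.68-fold lower (2.22 to 3.25). Its start lies 23 bases from that of NHSL1, a gene of the Nance-Horan syndrome protein family that acts on cell migration. In RefSeq the starts of these genes lie 119099 bases apart. NHSL1 stood at 3.90 against 4.66 RPKM, 1.196-fold lower (1.07 to 1.34), so that the RNA and the gene starting beside it in the table were both lower but by different amounts. The 9 expressed protein-coding genes within 1 Mb had a median log2 ratio of 0.06.

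FGD5-AS1 was the one of these 10 that was higher in the deficient library with an interval that excluded no change, at 19.3 against 12.8 RPKM from 1622 and 1063 reads, 1.51-fold (1.40 to 1.63). FGD5 had 1 and 0 reads. EPB41L4A-AS1 stood at 14.7 against 19.0 RPKM, 1.29-fold lower (1.18 to 1.42), with 4 and 5 reads on EPB41L4A. THAP9-AS1 stood at 17.6 against 19.6 RPKM, 1.12-fold lower (1.03 to 1.21), and THAP9, a gene derived from a DNA transposase, at 1.09 against 1.18 RPKM. HOXC-AS1, from the HOXC cluster of developmental homeobox genes, stood at 10.1 against 12.4 RPKM with an interval that included no change. It is named for the cluster and has no single partner. Outside these 10, OIP5-AS1, a long RNA known to bind the microRNA miR-7 and named here after its values were seen, stood at 13.1 against 8.60 RPKM from 2727 and 1766 reads. It was 1.53-fold higher (1.44 to 1.62), with OIP5, a centromere protein gene, at 4.84 against 4.54 RPKM.

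**Figure D2:**
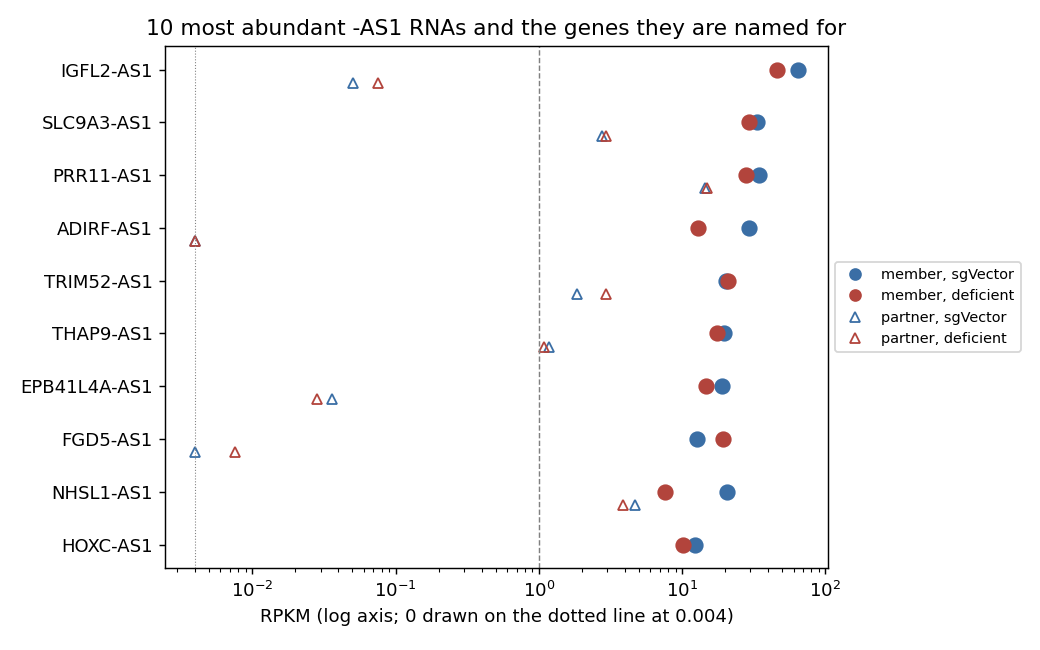
Level (RPKM, log axis) of the 10 most abundant antisense RNAs (filled circles) and of the genes they are named for (open triangles) in the sgVector (blue) and deficient (red) library, with a dashed line at the floor of 1 RPKM and values of 0 drawn on a dotted line. Each antisense RNA lies above its partner apart from HOXC-AS1 (no partner) and ADIRF-AS1 (partner listed at 0 and not measurable), and ADIRF-AS1 (12.9 against 29.2) and NHSL1-AS1 (7.66 against 20.5) show the widest gaps between libraries.

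Besides ADIRF-AS1 and NHSL1-AS1, 5 low members were lower with intervals wholly past 2-fold. All but LBX2-AS1 were under 1 RPKM in the deficient library and reached the floor on the mean only through the sgVector library. SIPA1L1-AS1, 6 exons on chromosome 14 from 71759446 to 71788531 (hg19, minus strand), stood at 0.502 RPKM from 8 reads in the deficient and 3.30 RPKM from 52 reads in the sgVector library. It was 6.57-fold lower (3.10 to 16.0), the lowest log2 ratio of any member at -2.50. SIPA1L1, which encodes an activator of Rap GTPase activity, stood at 4.43 against 5.29 RPKM, 1.19-fold lower (1.09 to 1.31), and shares no exon base with the RNA. MYG1-AS1, 2 exons on chromosome 12 from 53692439 to 53694098, had 6 and 36 reads, at 0.566 against 3.43 RPKM, and was 6.06-fold lower (2.53 to 17.6). MYG1, an exonuclease gene, stood at 15.0 against 22.1 RPKM, 1.47-fold lower (1.33 to 1.63), and 32 expressed protein-coding genes within 1 Mb had a median of -0.40. In both pairs the gene was lower too, by a far smaller fold than the RNA.

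CLDN14-AS1 stood at 0.622 against 2.67 RPKM from 12 and 51 reads, 4.30-fold lower (2.26 to 8.85), and the tight junction gene CLDN14 had 2 and 7 reads. LBX2-AS1, a single exon on chromosome 2 from 74729722 to 74731805, stood at 1.38 against 4.06 RPKM from 47 and 137 reads, 2.95-fold lower (2.10 to 4.20). LBX2, a homeobox gene starting 721 bases from it, was also lower in level, at 0.715 against 1.21 RPKM, 1.70-fold (1.04 to 2.81), with a mean below the floor. PARD6G-AS1, 6 exons on chromosome 18 from 77905807 to 77936315, stood at 0.718 against 2.06 RPKM from 54 and 153 reads, 2.86-fold lower (2.09 to 3.98). PARD6G, a member of the PAR6 family of cell polarity proteins, stood at 3.08 against 4.003 RPKM, 1.30-fold lower (1.08 to 1.56).

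The other 15 members called lower had 15 to 779 reads over both libraries. COL5A1-AS1, with 6 and 28 reads, stood at 1.09 against 5.14 RPKM, 4.72-fold lower (1.92 to 13.9), next to the collagen gene COL5A1 at 33.7 against 42.6 RPKM, 1.27-fold lower (1.22 to 1.31). It was named after its values were seen. ZNF516-AS1, with 14 and 44 reads, stood at 0.614 against 1.95 RPKM, 3.18-fold lower (1.71 to 6.28), while the zinc finger gene ZNF516 was 1.39-fold lower (1.26 to 1.53). JARID2-AS1, with 4 and 12 reads, was the member called lower whose interval included no change. Of the 22 members called lower, 12 were under 1 RPKM in the deficient library, and of the 7 called higher, 4 were under 1 RPKM in the sgVector library. Such members passed the floor only through the library in which they were higher, so that the floor itself helped to select them. The same floor was set for all genes of the background, but these lay further above it, with a median level of 5.98 RPKM against 2.01 for the members. The floor may thus have helped to select a larger share of the members than of the background. How much of the difference in lower calls comes from this was not tested.

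Members called higher rested on few reads, 26 to 69 over both libraries. RAET1E-AS1 had the highest log2 ratio, 1.65, at 1.82 against 0.510 RPKM from 36 and 10 reads, 3.56-fold higher (1.73 to 8.05). RAET1E, a ligand of the receptor NKG2D, was near equal at 0.569 against 0.534 RPKM. IGSF22-AS1 stood at 3.21 against 1.34 RPKM from 46 and 19 reads, 2.40-fold higher (1.38 to 4.33), and TRAPPC12-AS1 at 2.42 against 1.16 RPKM from 36 and 17 reads, 2.10-fold higher (1.15 to 3.98). IGSF22, an immunoglobulin superfamily gene, had 11 and 9 reads. TRAPPC12, a vesicle tethering subunit, stood at 3.14 against 3.35 RPKM with an interval that included no change. GP6-AS1, under the threshold at a log2 ratio of 0.83, stood at 1.999 against 1.08 RPKM from 45 and 24 reads, with 10 and 8 reads on the platelet collagen receptor gene GP6.

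**Figure D3:**
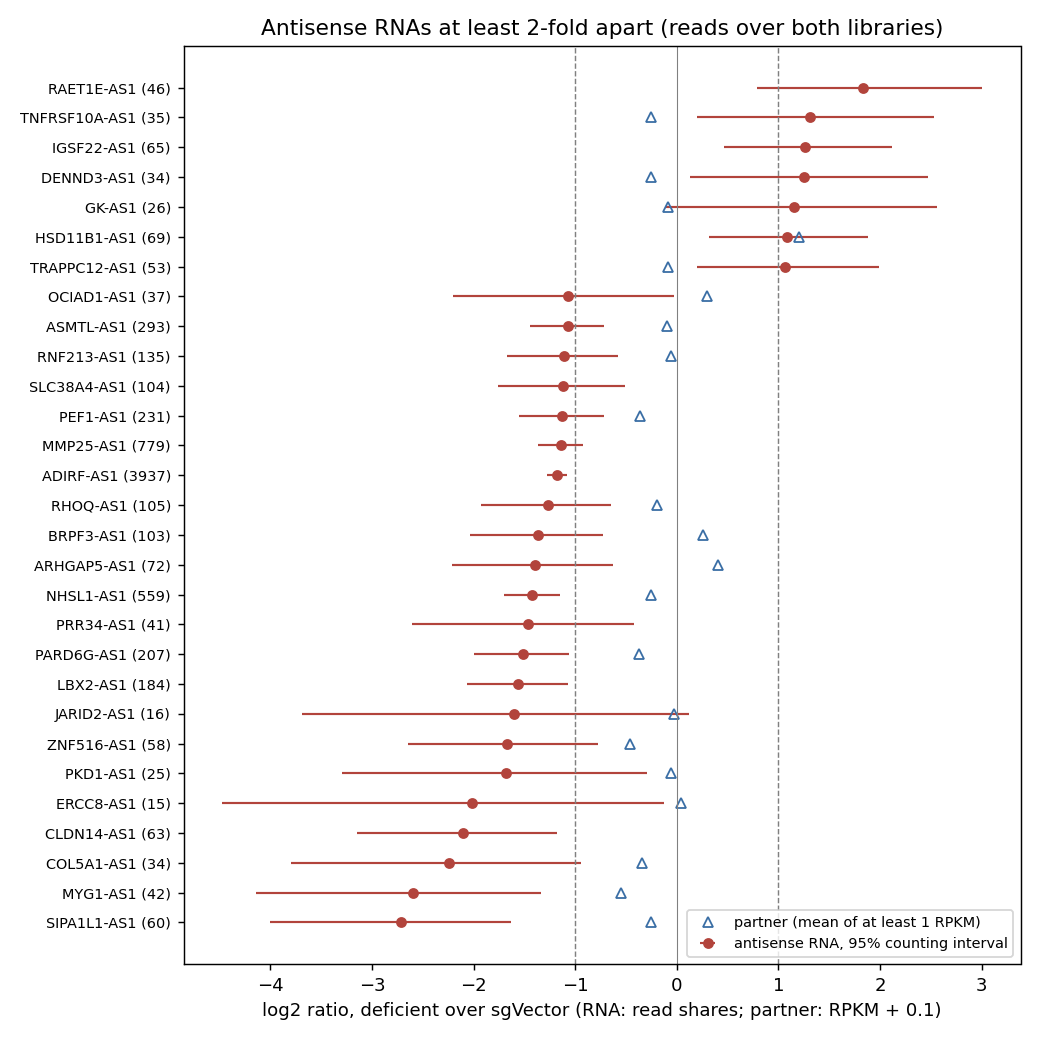
Log2 ratio of deficient over sgVector read shares with its 95% counting interval (red points and bars) for the 29 antisense RNAs called at 2-fold, with the log2 ratio of the partner (blue triangles, RPKM + 0.1) where it was past the floor, and reads over both libraries in brackets. The intervals of 7 RNAs lie wholly left of the dashed line at 2-fold lower and 0 lie wholly right of the line at 2-fold higher, and the triangle of HSD11B1-AS1 is the one past a dashed line.

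A row for the partner was found for 206 members, all of them protein-coding, and 162 of these partners were past the floor and formed a pair. Partners were mostly the more abundant of a pair: the member was below its partner in mean RPKM in 136 pairs and above it in 26, with a median partner-to-member ratio of 3.97. Partner ratios were also tighter, with a standard deviation of 0.36 across genes against 0.64 for the members. Partners had a median of 1548.5 reads over both libraries, against 109 for the members. Of the 162 partners 1 was called higher and 1 lower (0.617% each), beside 2.10% and 2.07% of all protein-coding genes past the floor.

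Member and partner had ratios of the same sign in 103 of 162 pairs (63.6%), of which 74 were both below 0 and 29 both above. Both sets leaned below 0 on their own, 107 of the 162 members and 100 of the 162 partners, so that many same signs would be met without any tie between the genes of a pair. In 33 pairs the member was below 0 and the partner above, and in 26 the reverse. Across pairs Pearson's r was 0.27 and Spearman's rho 0.27, a description over genes of the same 2 libraries. Restricted to 117 members with at least 50 reads r was 0.31, and to 58 with at least 200 reads 0.36. By arrangement r was 0.16 over 111 pairs with overlapping exons, 0.36 over 42 pairs whose spans overlap and whose exons do not, and 0.59 over 8 divergent pairs. Over the 51 pairs with no shared exon base 38 (74.5%) had the same sign and r was 0.45. With the correction for GC content and length 93 of 162 pairs (57.4%) had the same sign and r was 0.22. Neighbouring genes moved with the partners too: r between partner and the median of expressed protein-coding genes within 1 Mb was 0.39 over 152 pairs. Between member and that median it was 0.19 over the same 152 pairs and 0.15 over 194 members. With the neighbourhood median subtracted from both, r between member and partner was 0.27.

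**Figure D4:**
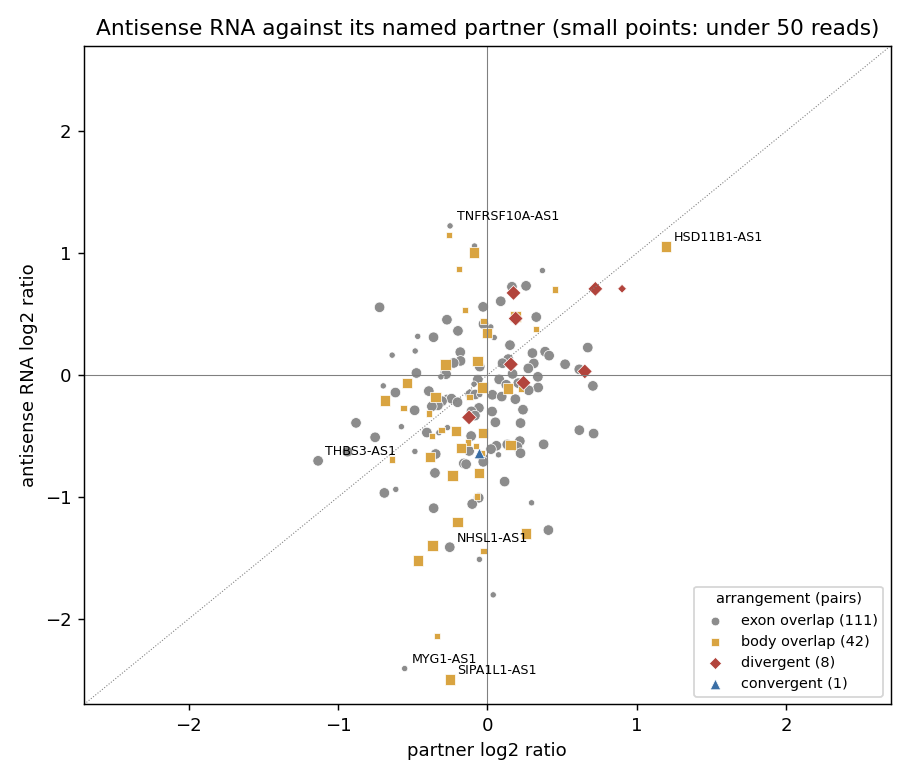
Log2 ratio of each antisense RNA (vertical axis) against that of its partner (horizontal axis), deficient over sgVector (RPKM + 0.1), for 162 pairs by arrangement, with small points for members under 50 reads and a dotted line of equal ratios. Points spread more in the vertical (standard deviation 0.64) than in the horizontal direction (0.36), and HSD11B1-AS1 and THBS3-AS1 lie beside the partners that passed 2-fold.

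Of the 29 called members 21 had a partner past the floor, and 1 of those partners was called, against 2 of the 162 partners in all pairs. A log2 ratio within 0.5 of 0 was found for 19 of the 21 partners (90.5%) and for 136 of all 162 (84.0%), a similar share. The 16 partners of lower members ran from -0.55 to 0.41. Member minus partner was at least 1 in 6 pairs and at most -1 in 15. The counting intervals of member and partner lay apart with the member below in 31 pairs and above in 8. No such counts were made for other pairs of genes, so these have no background beside them. The median log2 ratio in the pairs was -0.19 for members and -0.07 for partners, which by itself places more members below. These counts are therefore not read as a result about antisense RNAs and their partners.

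HSD11B1-AS1 was the called member with a called partner. It stood at 6.01 RPKM in the deficient and 2.85 RPKM in the sgVector library from 47 and 22 reads, 2.11-fold higher (1.25 to 3.68). HSD11B1, the enzyme that regenerates cortisol from cortisone, stood at 78.4 against 34.1 RPKM, 2.30-fold higher (2.12 to 2.49). RNA and gene share no exon base, but 96 exon bases of the RNA lie inside the span of the gene, and 3 expressed protein-coding genes within 1 Mb had a median of 0.62. The other called partner was THBS3, a thrombospondin of the extracellular matrix, at 4.89 against 10.8 RPKM, 2.22-fold lower (1.959 to 2.52). THBS3-AS1 was lower as well, at 1.11 against 1.88 RPKM from 45 and 75 reads, 1.68-fold (1.15 to 2.50), short of a call. CACNA2D1-AS1 stood at 2.07 against 1.001 RPKM from 90 and 43 reads, 2.07-fold higher (1.42 to 3.05) and at a log2 ratio of 0.98. CACNA2D1, an auxiliary subunit of calcium channels, was below the floor at 0.603 against 0.0753 RPKM and 8.005-fold higher (4.26 to 16.6).

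Some pairs differed in sign. TNFRSF10A-AS1 stood at 2.40 against 0.969 RPKM from 25 and 10 reads, 2.47-fold higher in the deficient library (1.15 to 5.77), while TNFRSF10A, a death receptor for TRAIL, stood at 4.47 against 5.33 RPKM, 1.19-fold lower (0.992 to 1.44). ARHGAP5-AS1 stood at 0.661 against 1.74 RPKM from 20 and 52 reads, 2.63-fold lower (1.54 to 4.65), while ARHGAP5, which encodes a GTPase-activating protein, was 1.33-fold higher (1.22 to 1.46). BRPF3-AS1 stood at 1.21 against 3.12 RPKM from 29 and 74 reads, 2.58-fold lower (1.66 to 4.11), while BRPF3, a scaffold of histone acetyltransferase complexes, was 1.201-fold higher (1.06 to 1.36). In these 2 pairs the intervals lay on opposite sides of no change. ERCC8-AS1 rested on 3 and 12 reads, 4.04-fold lower (1.09 to 22.3), with the DNA repair gene ERCC8 near equal at 4.15 against 4.03 RPKM.

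A few pairs of general interest were named after their values were seen. VIM-AS1 stood at 1.29 against 2.04 RPKM, 1.59-fold lower (1.06 to 2.40), and VIM, the mesenchymal intermediate filament vimentin, at 390 against 746 RPKM, 1.91-fold lower (1.89 to 1.94). The level of VIM is so far above that of VIM-AS1 that a small share of VIM reads in antisense exons would reach it, and this share was not measurable here. DICER1-AS1 stood at 1.75 against 2.44 RPKM, 1.39-fold lower (1.08 to 1.80), while DICER1, the nuclease that cuts microRNA precursors, was 1.54-fold higher (1.43 to 1.66). HLA-F-AS1 stood at 1.48 against 2.10 RPKM, 1.42-fold lower (1.09 to 1.85), while the class I gene HLA-F was 1.65-fold higher (1.43 to 1.91). Of antisense RNAs at transcription factor genes, ZEB1-AS1 stood at 3.47 against 3.90 RPKM with ZEB1 at 7.31 against 7.14, GATA6-AS1 at 1.85 against 2.90 with GATA6 at 11.02 against 11.996, GATA2-AS1 at 4.25 against 3.32 with GATA2 at 7.15 in both libraries, and FOXP4-AS1 at 3.66 against 3.37 with FOXP4 at 13.3 against 13.9.

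Other named classes of non-coding RNA were set beside the members. Of 94 divergent transcripts with the suffix -DT, 3 were higher and 10 lower (10.6%), with a median log2 ratio of -0.20. Of 117 LINC genes 5 were higher and 17 lower (14.5%), with a median of -0.23. The 10 antisense RNAs numbered AS2 or above had a median of -0.72 with 1 lower, and 9 intronic or overlapping transcripts (IT1 and OT1) a median of 0.18 with 1 higher and 1 lower. Shares called lower above the background of 4.69% were thus seen in -DT and LINC genes as well as in the -AS1 members. With the whole interval past 2-fold lower, 0 of the 94 -DT and 6 of the 117 LINC genes remained, beside 1.18% of all genes past the floor. Among 94 genes a count of 0 is near that background, and no difference from the members is read from it.

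Genes that act on antisense RNAs were set beside them. Of 33 genes of nuclear RNA surveillance, among them the exosome and its adaptors, the cap-binding complex and Integrator, 0 were called in either direction. Of all protein-coding genes past the floor 2.10% were called higher and 2.07% lower, and in so few genes a count of 0 is near that background. The median log2 ratio of the 33 was -0.10. The widest were RBM7, a subunit of the nuclear exosome targeting complex, at 3.79 against 2.23 RPKM, 1.70-fold higher (1.46 to 1.97), the poly(A)-binding gene PABPN1 at 14.2 against 22.9 RPKM, 1.61-fold lower (1.48 to 1.75), and the Integrator gene INTS9 at 2.49 against 4.04 RPKM, 1.62-fold lower (1.36 to 1.95). Of 12 genes that bind or process double-stranded RNA, 0 were called, again near that background, with a median of -0.04. The widest was DICER1, 1.54-fold higher (1.43 to 1.66). ADAR, which edits adenosines in double-stranded RNA, was 1.24-fold higher (1.19 to 1.30) and its relative ADARB1 1.33-fold lower (1.26 to 1.39).

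By chromosome, all 7 members on chromosome 16 were below 0, with a median of -0.80, where 490 protein-coding genes had a median of -0.15. The 8 on chromosome 18 had a median of -0.85, with 6 below 0, where 154 protein-coding genes had a median of 0.12. The 9 on chromosome 2 had a median of 0.31, with 4 below 0, beside -0.01 for protein-coding genes. On chromosomes 16 and 18 the members called lower were PKD1-AS1, MMP25-AS1, ZNF516-AS1 and PARD6G-AS1. MMP25-AS1 stood at 2.06 against 4.55 RPKM from 245 and 534 reads, 2.20-fold lower (1.89 to 2.57), and the membrane-bound metalloproteinase gene MMP25 at 0.444 against 0.823 RPKM. These chromosomes were singled out after their values were seen.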

How the data were processed

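RNA sequencing of polyA RNA from 1 PD-L1L2-SE deficient and 1 sgVector sample of SUM-159 cells was analysed. The authors deposited RPKM values, 1 column per library, beside exon coordinates, strand and gene length per the file headers. Subread and featureCounts 1.6.4 with the builds GRCh37 and hg19 are named per the submitters' processing notes. The sources used here do not give the annotation release or the strand setting. Multiplying out the RPKM steps recovered whole reads for 100% of values (tolerance 1e-06 of a read), which served for intervals and read minimums.

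Identifiers were matched to symbols for 56414 of 60880 rows (92.7%) and to gene types and GC content in GENCODE release 29, whose coordinates are of another build and were not used. The 41 chromosome Y copies of pseudoautosomal genes were left out. Arrangement and shared exon bases came from the coordinates in the table. The main value was log2 of (RPKM + 0.1) in the deficient over the sgVector library, applied where the mean reached 1 RPKM, a scale that understates the change of low genes. Folds in the text are ratios of read shares without the pseudocount, with 95% Clopper-Pearson intervals. The precision is set by reads per member (median 109 over both libraries), and a count of 0 allows up to 3 reads (0.183 and 0.185 reads per 1000000, deficient and sgVector). No p-values were computed, since there was 1 library per group.

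The members, the gene lists and the rule for named members were chosen with earlier results of these data known. Named were the 10 highest mean levels, the 6 highest and 6 lowest ratios among members with at least 50 reads, members whose interval lay wholly past 2-fold, members with a partner past 2-fold, up to 6 closest divergent pairs, up to 4 pairs of opposite sign with the largest difference, and the rows next to the floor. Intervals do not account for that choice. One marker of the fixed lists is not reported here. Alternatives were pseudocounts of 1 and 0.01, floors of 0.5, 5 and none, centring, TPM, TMM and upper-quartile scaling, 1.5-fold, at least 50 reads, and no shared exon base. A lowess correction (share 0.3) for GC content and length was added after the data were seen, as were floors and overlap for the interval counts. Promoter windows came from RefSeq (GRCh38.p14). Steps were tested on simulated data. Tables were handled with pandas 2.3.3 and numpy 2.4.6 in Python 3.11.15, intervals and lowess came from scipy 1.17.1 and statsmodels 0.14.6, and plots from matplotlib 3.10.9.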

Additional observations from a re-analysis of the deposited data

How the results depend on the processing

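The counts of members called higher (7) and lower (22) moved with the pseudocount, the floor, the members kept and the fold threshold. They were 0 and 7 with a pseudocount of 1 RPKM, 14 and 40 at a floor of 0.5 RPKM, 0 and 3 at a floor of 5 RPKM, 81 and 142 with no floor, and 20 and 53 at 1.5-fold. With no exon base shared with an opposite-strand gene they were 3 and 8 of 60 members, and with at least 50 reads 3 were higher. As shares, members against all genes, lower calls were 3.38% against 2.54% with a pseudocount of 1 RPKM, 11.9% against 7.03% at a floor of 0.5 RPKM, 10.3% against 2.01% at a floor of 5 RPKM, 13.3% against 12.03% with no floor, 25.6% against 12.6% at 1.5-fold and 13.3% against 5.95% with no shared exon base. The share called lower was thus near that of all genes with the larger pseudocount and with no floor. Higher calls were 4.18% against 3.97% at a floor of 0.5 RPKM and 0% against 1.52% at a floor of 5 RPKM. With no floor they were 7.61% against 8.34%, and at 1.5-fold 9.66% against 8.29%. With no shared exon base they were 5% against 3.74%, and with at least 50 reads 1.92% against 2.26%. Under centring, TPM, TMM and upper-quartile scaling, which shifted all ratios by 0.03 to 0.05, 8 were higher and 20 or 21 lower. As shares, 3.86% were higher, against 3.19% to 3.32% of all genes, and 9.66% or 10.1% lower, against 4.35% to 4.45%. The 7 of 207 members lower by interval became 2 of 29 at a floor of 5 RPKM and 2 of 60 with no shared exon base. The share of all genes lower by interval is not given at these settings, so these counts have no background beside them. These settings were chosen after seeing the data, as was the correction for GC content and length. That correction moved the median from -0.21 to -0.11, and the cause was not tested. With no exon base shared the same-sign share of pairs went from 63.6% to 74.5% and r from 0.27 to 0.45, over 51 of the 162 pairs, and the cause was not tested. With the correction for GC content and length they were 57.4% and 0.22.

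Of 132 values of the 33 named members under alternatives, 10 lost and 3 gained a 2-fold call, and 2 differed in sign, SCAMP1-AS1 and SLC9A3-AS1, both near 0 and both with the correction for GC content and length (0.10 and 0.06). Outside the counting interval of the member lay 5 of the values, 2 of them with a pseudocount of 1 RPKM. TRIM52-AS1 with the correction for GC content and length was among the 5. Depth limits low members most: 51 had fewer than 50 reads. No paired analysis was possible because each group had 1 library.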
